A study of Sus scrofa with 74 samples.

Results

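Transcript levels of the genes of glycolysis and glycogen metabolism were examined in a back muscle, the M. longissimus dorsi, of 74 pigs. The list held 37 names of 36 genes, since PKM and PKM2 name the same pyruvate kinase gene. Members were the probe sets that the annotation of the array assigns to a single gene on that list, control probe sets left out. They came to 39 probe sets of 26 genes, out of 23999 probe sets that are not controls and 6765 genes named in this way. For the other 10 genes on the list (ALDOA, GBE1, HK2, PFKFB1, PFKFB3, PGAM1, PHKA1, PPP1R3A, PPP1R3C and PYGB) no probe set carries the name alone, and they were not analysed here.

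Each pig was an F2 animal of a Duroc and Pietrain cross that did not carry the RYR1 stress mutation. They were slaughtered at a mean weight of 110 kg, and the RNA of each was read on an Affymetrix array of pig genes. Muscle was frozen at slaughter, before the changes that turn muscle into meat. The labels put all animals in 1 group, with no treatment and no control animals, and number them in 2 runs, 1 to 33 (24 animals, the first block) and 60 to 114 (50 animals, the second block). What sets the blocks apart is not in the labels, so anything that differs between them cannot be told apart from the block. Many of the pigs are full sibs, and since family, sex, drip loss and slaughter day are not in the labels, all p-values treat the animals as independent. Levels are log2 intensities, with all arrays brought to a common trimmed mean (500), and they rank the animals for 1 probe set, not the probe sets against each other.

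Muscle stores glucose as glycogen, and phosphorylase releases it again when phosphorylase kinase switches it on. The sugar phosphates then run through glycolysis to pyruvate, which lactate dehydrogenase turns into lactate when oxygen is short. Many steps have a form that prevails in skeletal muscle beside a form found in many tissues, such as PYGM beside PYGL, PFKM beside PFKL and PFKP, ENO3 beside ENO1, and LDHA beside the heart form LDHB. After slaughter the same reactions go on without oxygen and acidify the meat, which is why they are studied for water holding capacity.

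The markers of skeletal muscle were bright, which alone does not identify the tissue. Of 9 skeletal muscle genes listed, 6 had a probe set, CKM, TTN, MYLPF, TNNC2, TNNT3 and MYH2, and all 6 lay in the brighter group, the 11999 probe sets with the higher median levels. So did all 4 fibroblast markers with a probe set and 4 of the 5 adipocyte markers with one. Of the 39 member probe sets, 34 of 24 genes lay in the brighter group and entered the tests. The 5 that did not were those of PHKG1 and PHKG2, the catalytic subunits of phosphorylase kinase, 2 of the 3 for the insulin-responsive glucose transporter SLC2A4, and 1 of 5 for GAPDH.

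Once scaled, the brightest members ran against the level of the array. The mean of an array before scaling was 87.1 ± 14.9 (SD, n = 24) in the first block and 130.4 ± 20.2 (SD, n = 50) in the second. In 12 probe sets of 9 genes, among them PYGM, GAPDH, ENO3, PGAM2 and LDHA, the deposited log2 values averaged above 13, where the highest value of the whole table was 14.17. As deposited, their SD within a block was 0.063 to 0.28, against an SD of the log2 array level of 0.26 and 0.23. Once scaled they ran against the array level, with r from -0.91 to -0.51 in the first block and from -0.97 to -0.49 in the second. The cre transcript, a control that is spiked into every hybridisation, did the same, with r = -0.85 and -0.92. The other 22 member probe sets of the brighter group had a median r of -0.22 and -0.13. Results for the bright members are therefore given with and without the log2 array level as a term of the fit. The log2 array level itself averaged 6.42 in the first block and 7.01 in the second, so the block and that term overlap. Between the blocks the cre control differed by 0.08 once scaled. As deposited it averaged 13.13 in the first block and 13.64 in the second, and it was not part of the fits.

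**Figure D1:**
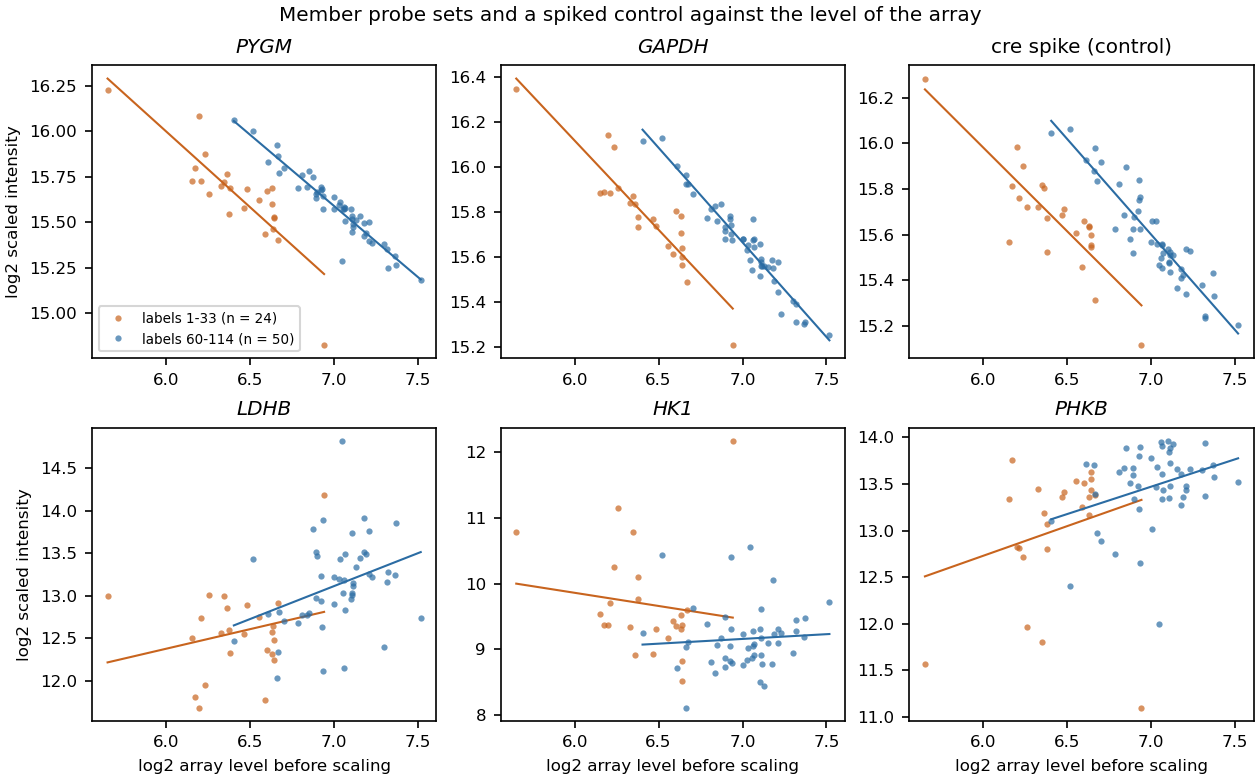
Scaled log2 intensity (y axis) against the log2 level of the array before scaling (x axis) for 5 member genes, 1 probe set each, and the spiked cre control; every point is an animal, coloured by label block, and lines are least squares fits within a block. PYGM and GAPDH fall along the array level as the cre control does, while LDHB, HK1 and PHKB scatter widely around their lines.

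In 4 animals the members stood apart. The animal labelled 26 lay over 3 robust SDs from the median of its block in 23 of the 34 probe sets, and the animals labelled 23, 111 and 114 did so in 12, 9 and 9, against at most 4 in any other animal. Animal 26 had the lowest value of the first block in 20 probe sets, PYGM, LDHA and PFKM among them, and the highest in 5, which included HK1, LDHB and PYGL. Animals 26 and 114 had the highest array level of their blocks (122.9 and 183.2) and animal 23 the lowest (50.3). For many calls named here that ended or were made by leaving these animals out, the value without them is given.

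Between the blocks ENO1, HK1 and PYGL, all general forms, were higher in the first, and PGK1, PFKM, SLC2A4, LDHB and PHKB were lower. Among the 34 member probe sets, 6 were higher and 8 lower in the first block at an adjusted p under 0.05 (limma, Benjamini-Hochberg over all 11999 probe sets), while 24.8% of all probe sets were higher and 36.6% lower. Called members were thus a smaller share than called probe sets of the whole array, and their median difference was -0.05 on the log2 scale beside -0.07 over all probe sets. Once the array level was in the fit, 3 members were higher and 20 lower, against 22.7% and 34.8% of all, and the medians were -0.35 and -0.11. Without animal 26, 10 were higher and 6 lower, against 24.9% and 36.6% of all. A muscle form was called lower in 4 probe sets and higher in 1 of 13, and a general form higher in 3 and lower in 1 of 7, LDHB.

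Glucose entry was represented by SLC2A4, which carries glucose into the fibre on insulin or contraction, and by HK1, the hexokinase of many tissues. SLC2A4 ran from 6.89 through a median of 7.98 to 8.94 in the first block and from 7.60 through 8.75 to 9.77 in the second. The blocks overlapped, but 5 of the 24 animals of the first block lay below every animal of the second. SLC2A4 was lower in the first block by a log2 difference of -0.62 ± 0.12 (SE, adjusted p = 4.6e-06), and by -1.16 with the array level in the fit (adjusted p = 6.1e-09). HK1 ran from 8.52 through 9.40 to 12.17 in the first block and from 8.11 through 9.10 to 10.55 in the second. Here 4 animals of the first block exceeded the second, and the long upper tail rather than the median carried much of the spread. HK1 was higher in the first block by 0.53 ± 0.15 (SE, adjusted p = 0.0015). The difference was 0.50 with the array level in the fit and no longer passed (adjusted p = 0.059). Without the 4 animals that stand apart it was 0.41 with the block alone (adjusted p = 0.0036) and 0.22 with the array level as well (adjusted p = 0.36).

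Of upper glycolysis, PFKM, the muscle form of the phosphofructokinase that commits sugar to the pathway, was the clearest. It spanned 13.82, 15.16 and 15.39 (lowest, median and highest) in the first block and 14.93, 15.38 and 15.69 in the second. Animal 26 was the lowest by more than 1 unit, and 2 animals of the first block lay below the second. PFKM was lower by -0.26 ± 0.06 (SE, adjusted p = 4.5e-05), and by -0.57 with the array level in the fit (adjusted p = 2.2e-10). The liver form PFKL (-0.16 ± 0.10, adjusted p = 0.17) and the platelet form PFKP (-0.12 ± 0.12, adjusted p = 0.39) did not pass, and PFKL passed once animal 26 was left out (-0.22, adjusted p = 0.043). With the array level in the limma fit and without the 4 animals that stand apart, both were lower. PFKL then differed by -0.47 (adjusted p = 0.0085) and PFKP by -0.49 (adjusted p = 0.018). GPI, which turns glucose phosphate into fructose phosphate, differed by -0.02 ± 0.07 (SE, adjusted p = 0.78). The triose phosphate isomerase TPI1 differed by 0.09 ± 0.06 (SE, adjusted p = 0.23), FBP2, the muscle fructose bisphosphatase, by -0.17 ± 0.10 (SE, adjusted p = 0.16), and the brain aldolase ALDOC by -0.09 ± 0.24 (SE, adjusted p = 0.75). GPI was lower by -0.50 (adjusted p = 1.4e-08) and TPI1 by -0.25 (adjusted p = 0.0074) when the array level was in the fit, so both calls depend on that term. The call of TPI1 also rested on the 4 animals, since without them the value with the array level was -0.10 (adjusted p = 0.14). With the block alone and without animal 26, TPI1 was higher by 0.14 (adjusted p = 0.010).

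In lower glycolysis PGK1 and ENO1 went opposite ways. PGK1, which makes the first ATP of the pathway, spanned 13.89, 15.14 and 15.49 in the first block and 14.99, 15.42 and 15.80 in the second. A group of 8 animals of the first block lay below the whole second block. PGK1 was lower by -0.34 ± 0.05 (SE, adjusted p = 1e-07), and by -0.68 with the array level in the fit (adjusted p = 2.5e-14). ENO1, the enolase of many tissues, spanned 11.74, 12.67 and 13.30 in the first block and 11.51, 12.15 and 12.85 in the second. The first block held the higher values, 6 of its animals exceeding the whole second block. ENO1 was higher by 0.47 ± 0.07 (SE, adjusted p = 6.9e-08), and still by 0.31 with the array level in the fit (adjusted p = 0.014).

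The muscle enolase ENO3 differed by 0.06 ± 0.05 (SE, adjusted p = 0.34) and the muscle phosphoglycerate mutase PGAM2 by 0.10 ± 0.06 (SE, adjusted p = 0.13). Both were lower in the first block, by -0.41 and -0.39, with the array level in the fit. As deposited, ENO3 averaged 13.08 in the first block and 13.61 in the second, and PGAM2 13.24 and 13.72. The cre control averaged 13.13 and 13.64 there. Without animal 26, PGAM2 was higher by 0.15 with the block alone (adjusted p = 0.0097). GAPDH, the oxidising step, had 4 probe sets in the brighter group, with differences from 0.10 to 0.24 of which 2 passed, the brightest (0.13, adjusted p = 0.041) and the dimmest of the 4 (0.24, adjusted p = 0.014). All 4 turned negative with the array level in the fit, between -0.40 and -0.16, and 3 of the 4 passed in that direction. All 4 passed as higher with the block alone once animal 26 was left out, with differences from 0.13 to 0.30. Without the 4 animals that stand apart the second brightest did not pass (0.09, adjusted p = 0.12). The probe sets of pyruvate kinase PKM disagreed, the dimmer being lower by -0.24 (adjusted p = 0.032; -0.19 and 0.079 without animal 26) and the brighter differing by 0.00072 (adjusted p = 0.99).

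At the lactate step LDHB passed and LDHA did not. LDHB, which favours the use of lactate, spanned 11.69, 12.57 and 14.18 in the first block and 12.03, 13.15 and 14.82 in the second. Animal 26 was the highest of the first block and animal 111 the highest of the second, while 4 animals of the first block lay below the second. LDHB was lower by -0.55 ± 0.13 (SE, adjusted p = 0.00014), but with the array level in the fit the difference was -0.16 (adjusted p = 0.47). LDHA spanned 14.55, 15.61 and 15.94 in the first block and 15.31, 15.65 and 16.07 in the second, a near complete overlap. Its difference of -0.10 ± 0.05 (SE, adjusted p = 0.10) did not pass, and with the array level in the fit it was -0.48 (adjusted p = 1.8e-11). The reference names 2 genes LDHB, and which of them the probe set reads was not tested.

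In glycogen breakdown, PYGL, the liver form of phosphorylase, spanned 9.18, 9.75 and 11.61 in the first block and 8.29, 9.46 and 11.11 in the second. Animals 26 and 23 led the first block, and animals 114 and 111 were the top of the second. PYGL was higher by 0.37 ± 0.13 (SE, adjusted p = 0.011), and by 0.28 with the array level in the fit (adjusted p = 0.23). PHKB, the beta subunit of phosphorylase kinase, spanned 11.10, 13.30 and 13.75 in the first block and 11.99, 13.59 and 13.96 in the second. Each block had a tail of low animals, 4 of them in the first block lower than any in the second. PHKB was lower by -0.48 ± 0.13 (SE, adjusted p = 0.00085), and by -0.12 with the array level in the fit (adjusted p = 0.60).

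The muscle phosphorylase PYGM had 4 probe sets whose calls disagreed. The second brightest was higher by 0.13 (adjusted p = 0.049), the dimmest lower by -0.27 (adjusted p = 0.019, but -0.18 and 0.059 without animal 26), and the other two differed by 0.06 and -0.08. Without all 4 animals that stand apart the dimmest passed as lower (-0.22, adjusted p = 0.012). All 4 were lower with the array level in the fit, from -0.82 to -0.37. PGM1, which links glycogen to glycolysis, differed by -0.08 ± 0.05 (SE, adjusted p = 0.16), and was lower by -0.48 with the array level in the fit (adjusted p = 6.1e-12).

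Among the genes of glycogen synthesis 1 probe set passed with the block alone. The glycogen synthase of muscle, GYS1, had 3 probe sets, of which 1 was lower (-0.24, adjusted p = 0.034) while the other two differed by 0.04 each. Without animal 26 that call was narrowly lost (-0.23, adjusted p = 0.051), but it passed without all 4 animals that stand apart (-0.30, adjusted p = 0.0028). All 3 were lower with the array level in the fit, by -0.65, -0.35 and -0.40 (adjusted p = 9e-05, 0.011 and 0.0057), and all 3 passed without the 4 animals too. GYG1, the protein primer of glycogen, differed by -0.09 ± 0.05 (SE, adjusted p = 0.12). The probe sets of UGP2, which makes UDP-glucose, differed by 0.06 and -0.14 and did not pass. They were higher by 0.44 and 0.35 with the array level in the fit (adjusted p = 0.0066 and 0.045).

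**Figure D2:**
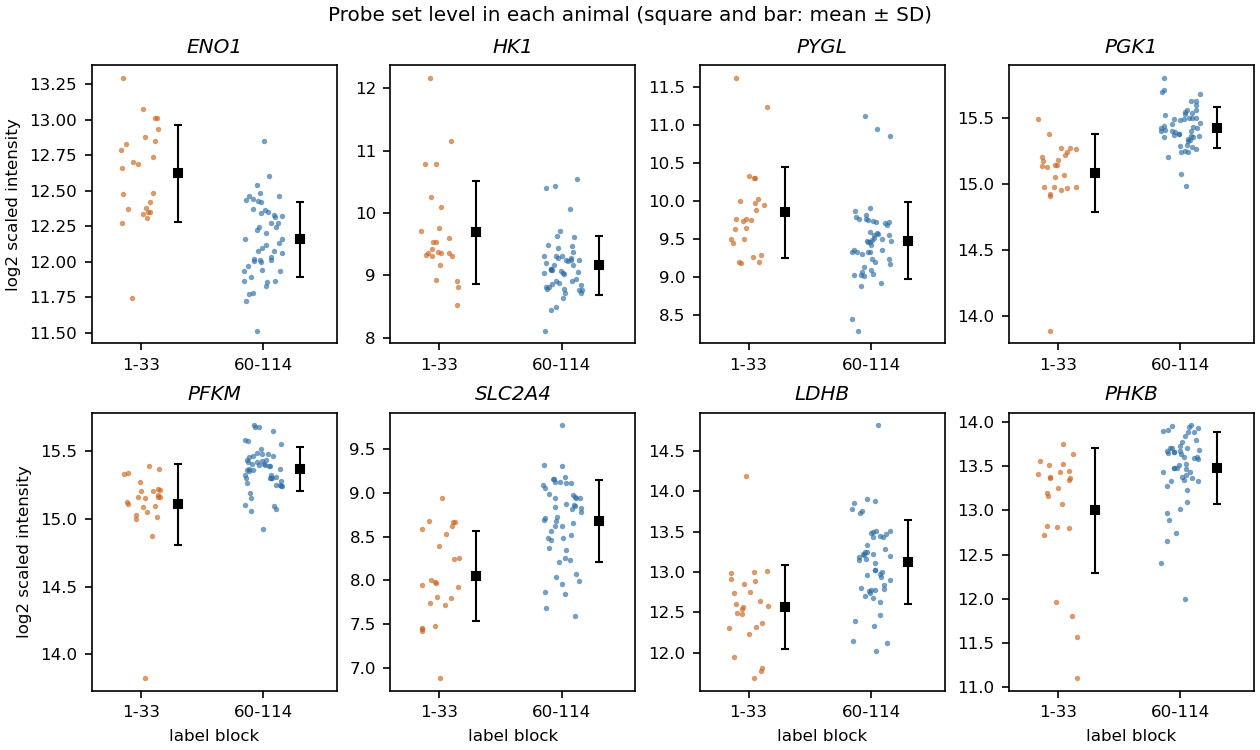
Scaled log2 intensity (y axis) of 8 member genes in each animal of the first block (labels 1-33) and the second (labels 60-114); squares and bars are the mean and SD. The blocks overlap in all 8 genes; ENO1, HK1 and PYGL lie higher in the first block and PGK1, PFKM, SLC2A4, LDHB and PHKB lower, and the animals far below the rest in PGK1 and PFKM or above it in HK1 and PYGL include animal 26.

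Across animals, the enzymes of the main line of glycolysis followed PYGM, as they followed the markers of skeletal muscle as a whole. In a fit of every probe set on the level of PYGM (its brightest probe set) and the block, 21 of 33 member probe sets had a positive slope and 3 a negative one at an adjusted p under 0.05 (limma), against 22.4% positive and 24.1% negative over 11998 probe sets. The median slope of the members was 0.17 log2 units per SD of PYGM, and that of all probe sets 0.0081. PGAM2 (0.23 ± 0.01, SE), GPI (0.23 ± 0.02), ENO3 (0.20 ± 0.01), GAPDH (0.20 ± 0.01), PGM1 (0.19 ± 0.01) and TPI1 (0.19 ± 0.02) were among them. The spiked cre control, which is not muscle RNA, also ran with PYGM in the values as deposited (r = 0.81 in the first block and 0.51 in the second). For the brightest probe sets of the genes just named that r was 0.60 to 0.87 and 0.29 to 0.72. The slopes were fitted on scaled values, where PYGM and the cre control both ran against the array level. There r was -0.85 and -0.95 for PYGM and -0.85 and -0.92 for cre. Their SDs over all animals, once scaled, were 0.21 and 0.22. How far this enters the slopes was not tested. Of the muscle forms, 11 of 12 probe sets had a positive slope, 3 of which are other probe sets of PYGM itself and 3 of GYS1. With 1 probe set per gene, 12 member genes had a positive slope. None of the 7 general forms had, and LDHB had a negative slope (-0.24 ± 0.05, SE, adjusted p = 0.00019). The negative slopes of both UGP2 probe sets, -0.15 for the brighter (adjusted p = 0.0039), were the others.

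The score of the 6 skeletal muscle markers ran with the same genes. It was correlated in both blocks with 10 of the 24 member genes, all positively, after adjustment over the 384 correlations of marker scores described further on. For PYGM r was 0.99 and 0.97 (rho 0.98 and 0.97, permutation p = 1e-05 each, adjusted 0.00017), 0.97 and 0.96 without the 2 farthest animals, and 0.96 and 0.59 with the array level taken out. ENO3 (r = 0.97 and 0.97), PGAM2 (0.98 and 0.95), GAPDH (0.94 and 0.97), PGM1 (0.96 and 0.93), LDHA (0.94 and 0.89), GPI (0.97 and 0.75), PGK1 (0.91 and 0.80), PFKM (0.84 and 0.73) and TPI1 (0.92 and 0.55) were the others. For these other genes the array level was not taken out of the r given here. The summed log2 level of those markers ran from 17.44 to 18.79 in the first block and from 17.82 to 18.66 in the second. Their part in the slopes on PYGM and LDHA was not tested.

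In the same fit with the array level added, 19 member probe sets had a positive slope and 4 a negative one, while the shares over all probe sets dropped to 8.57% and 7.48%. PHKB now had a positive slope (0.64 ± 0.12, SE, adjusted p = 5.4e-05), as did FBP2 (0.45 ± 0.11, SE, adjusted p = 0.0016) and PKM (0.34 ± 0.06, SE, adjusted p = 1e-05). The negative slopes were those of general forms, HK1 (-0.80 ± 0.14, SE, adjusted p = 2.5e-05), PYGL (-0.65 ± 0.13, SE, adjusted p = 0.00015), LDHB (-0.55 ± 0.12, SE, adjusted p = 0.00088) and PFKP (-0.43 ± 0.12, SE, adjusted p = 0.0089). SLC2A4, GYS1 and UGP2 no longer passed. The negative calls of the general forms in that fit were lost without a few animals. Without the 4 animals that stand apart and with the array level in the fit, 13 members had a positive slope and none a negative one (0 of 33), against 1.33% and 0.492% of all. HK1 then had a slope of -0.35 (adjusted p = 0.20), PYGL of -0.26 (adjusted p = 0.23), LDHB of -0.25 (adjusted p = 0.29) and PFKP of -0.31 (adjusted p = 0.21). The positive calls of PHKB (0.17, adjusted p = 0.45), FBP2 (0.26, adjusted p = 0.24) and PKM (0.19, adjusted p = 0.077) were lost there too. With the block alone and without the 4 animals LDHB still had a negative slope (-0.19, adjusted p = 0.0011). PHKB had a negative slope in that limma fit too (-0.12, adjusted p = 0.025), and also without animal 26 alone (-0.14, adjusted p = 0.024). The 13 belonged to ENO3, GAPDH, GPI, LDHA, PFKM, PGAM2, PGK1, PGM1, TPI1 and PYGM's own other probe sets, with slopes from 0.12 to 0.27.

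Fitted on LDHA in place of PYGM, the members gave a like picture. Of 33 probe sets, 21 had a positive and 5 a negative slope, against 17.1% and 18.6% of all, with a median of 0.17 beside 0.00041. The counts were 18 and 5 with the array level in the fit, against 10.7% and 9.45%. TPI1 (0.25 ± 0.03, SE, adjusted p = 2.5e-11), PFKM (0.21 ± 0.02, SE, adjusted p = 1e-09) and PGK1 (0.21 ± 0.02, SE, adjusted p = 3.5e-11) were among the positive slopes of the glycolytic steps, and PHKB (0.50 ± 0.07, SE, adjusted p = 3e-07) was steeper. HK1 (-0.57), PYGL (-0.44), LDHB (-0.43), PFKP (-0.27) and PFKL (-0.25) had negative slopes. In that fit without the 4 animals that stand apart 9 positive and 0 negative slopes were left, against 0.525% and 0.0583% of all. The 9 belonged to GAPDH, GPI, PFKM, PGAM2, PGK1, PGM1, PYGM and TPI1. PHKB was not among them (0.17, adjusted p = 0.35). LDHB had a slope of -0.26 there (adjusted p = 0.13), and of -0.22 with the block alone and without the 4 animals (adjusted p = 0.00020).

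**Figure D3:**
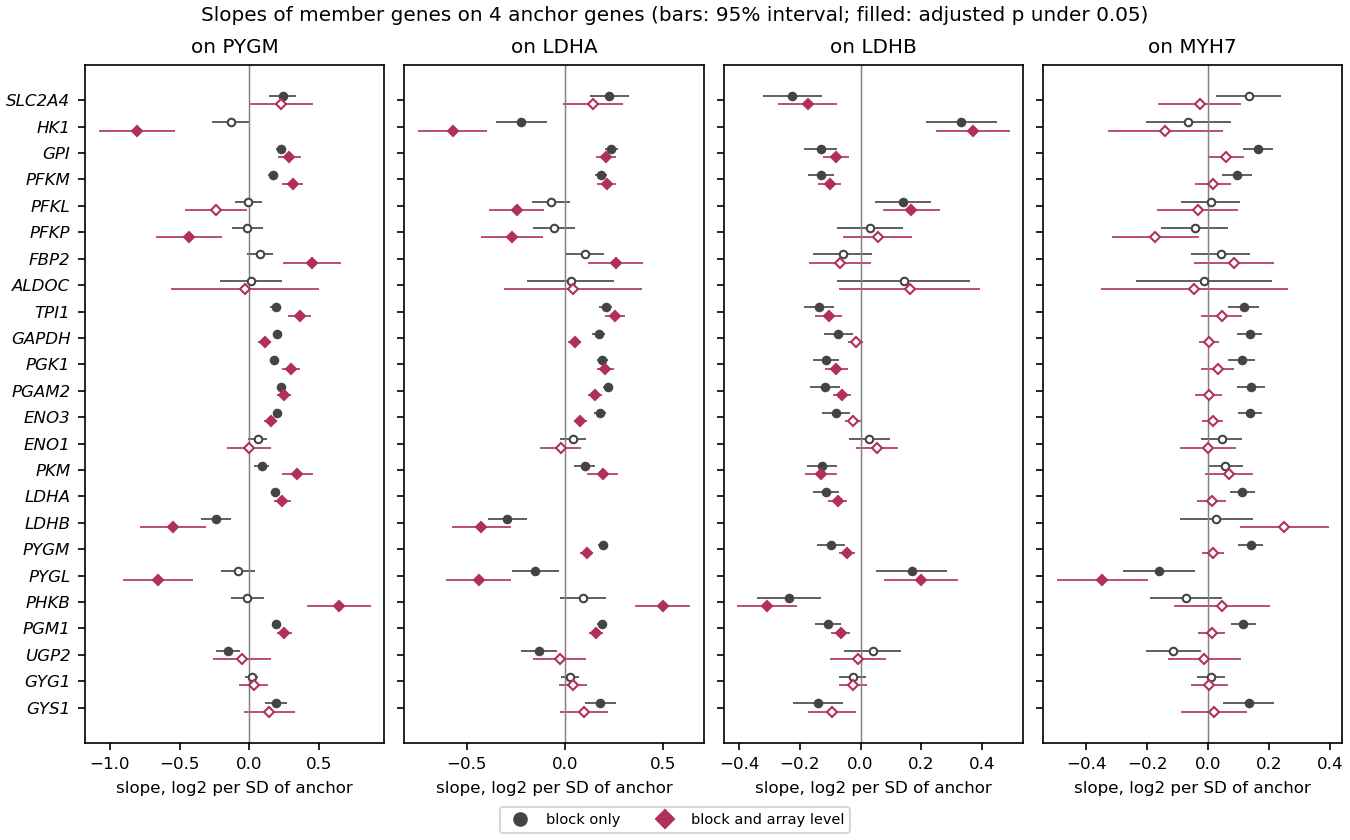
Slope of each member gene (brightest probe set) on PYGM, LDHA, LDHB and MYH7, in log2 units per SD of that gene within a block (x axis, a scale of its own in each panel), with the block alone (grey circles) or the block and the array level (red diamonds) in the fit; bars are 95% intervals and filled symbols have an adjusted p under 0.05. The main glycolytic enzymes have positive slopes on PYGM and LDHA in both fits, HK1, PYGL and LDHB negative ones that are steeper with the array level in the fit, and the positive slopes on MYH7 shrink towards 0.

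Most members ran against LDHB. On LDHB, 3 member probe sets had a positive slope and 21 of 33 a negative one, against 9.84% and 10.7% of all, with a median of -0.10 beside -6.4e-05. The 3 were general forms, HK1 (0.33 ± 0.06, SE, adjusted p = 2.6e-05), PYGL (0.17 ± 0.06, SE, adjusted p = 0.033) and PFKL (0.14 ± 0.05, SE, adjusted p = 0.023). Without animal 26 the calls of PYGL (0.10, adjusted p = 0.26) and PFKL (0.08, adjusted p = 0.21) were lost. Without the 4 animals that stand apart they were 0.02 (adjusted p = 0.78) and 0.08 (adjusted p = 0.25), while HK1 still passed (0.18, adjusted p = 0.019). PHKB (-0.24 ± 0.05, SE, adjusted p = 0.00079), SLC2A4 (-0.22 ± 0.05, SE, adjusted p = 0.00056) and PFKM (-0.13 ± 0.02, SE, adjusted p = 6.9e-06) were among the negative slopes. Of these, PHKB did not pass with the block alone and without the 4 animals (-0.08, adjusted p = 0.26). The counts were 3 and 17 with the array level in the fit, against 8.1% and 9.4%. Without the 4 animals as well, 2 positive and 6 negative slopes were left, against 3.33% and 2.88%. HK1 (0.24, adjusted p = 0.0066), PHKB (-0.16, adjusted p = 0.020) and PFKM (-0.06, adjusted p = 0.011) were among these 8, as was ALDOC (0.38, adjusted p = 0.041), while LDHA was not (-0.04, adjusted p = 0.13). Leaving out the 2 animals farthest from the median of LDHB left 1 positive and 8 negative slopes.

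MYH7, the myosin heavy chain of slow fibres, gave positive slopes that the array level took away. With the block alone, 19 of 34 member probe sets had a positive and 2 a negative slope, against 11.1% and 13.1% of all. MYH7 itself ran against the array level, with r = -0.63 and -0.72 in the blocks. Once the array level was in the fit, 0 members had a positive slope and 1 a negative one, against 1.61% and 0.792% of all, and 4 of 34 had an unadjusted p under 0.05. The one was PYGL (-0.35 ± 0.08, SE, adjusted p = 0.0034), which with the block alone had a slope of -0.16 (adjusted p = 0.041). PYGL was tied to the animals that stand apart here too, with a slope of -0.04 (adjusted p = 0.61) on the block alone without them. LDHB, which slow fibres hold in plenty, had a slope of 0.25 ± 0.07 (SE, adjusted p = 0.050) with the array level in the fit. It was 0.26 (adjusted p = 0.013) when the 4 animals were left out as well.

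The slopes were not shown to differ between the blocks. An interaction of anchor and block gave 0 called member probe sets for PYGM, LDHA, LDHB and MYH7 (limma), against 0.7%, 0.583%, 0.4% and 0.00833% of all probe sets. At an unadjusted p under 0.05 there were 5, 8, 8 and 0 members.

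The pairs of a muscle form and a general form were then set against each other within each animal, where the scaling of the array cancels. Of 11 pairs listed, 5 had both forms in the brighter group. ENO3 minus ENO1 was lower in the first block by -0.41 (95% interval -0.56 to -0.25, permutation p = 1e-05, the smallest that 100000 resamples can give, and 5e-05 adjusted over the 5 pairs). In 22 of the 24 animals of the first block it lay below the median of the second. Once scaled, ENO1 was higher by 0.47 where ENO3 differed by 0.06. As deposited, ENO3 was lower by -0.53 (limma, adjusted p = 1.6e-23) and ENO1 differed by -0.12 (adjusted p = 0.18). Which of the pair carried the difference thus depends on the scaling. LDHA minus LDHB was higher in the first block by 0.45 (interval 0.12 to 0.77, permutation p = 0.0071, adjusted 0.018), in 23 of 24 animals not below the median of the second. That contrast was -0.32 with the array level as a covariate (permutation p = 0.15), so its direction depends on this term.

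PYGM minus PYGL was lower by -0.31 (interval -0.61 to -0.0084, permutation p = 0.041), which did not pass after adjustment (0.068). Without animal 26 it was -0.20 (permutation p = 0.14), and without the 4 animals that stand apart -0.24 (permutation p = 0.029, not adjusted). PFKM minus PFKL differed by -0.10 (interval -0.37 to 0.17, permutation p = 0.47) and PFKM minus PFKP by -0.14 (interval -0.43 to 0.14, permutation p = 0.32). For both pairs quantile normalization gave a lower contrast in the first block, -0.31 (permutation p = 0.012) and -0.40 (permutation p = 0.0022). PHKG1 and PHKG2 were both outside the brighter group, at 2.81 to 7.11 and 4.50 to 7.66 in the first block and 2.26 to 6.80 and 6.03 to 7.85 in the second. The pairs of HK2, ALDOA, PGAM1, PYGB and the PFKFB genes were not compared.

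**Figure D4:**
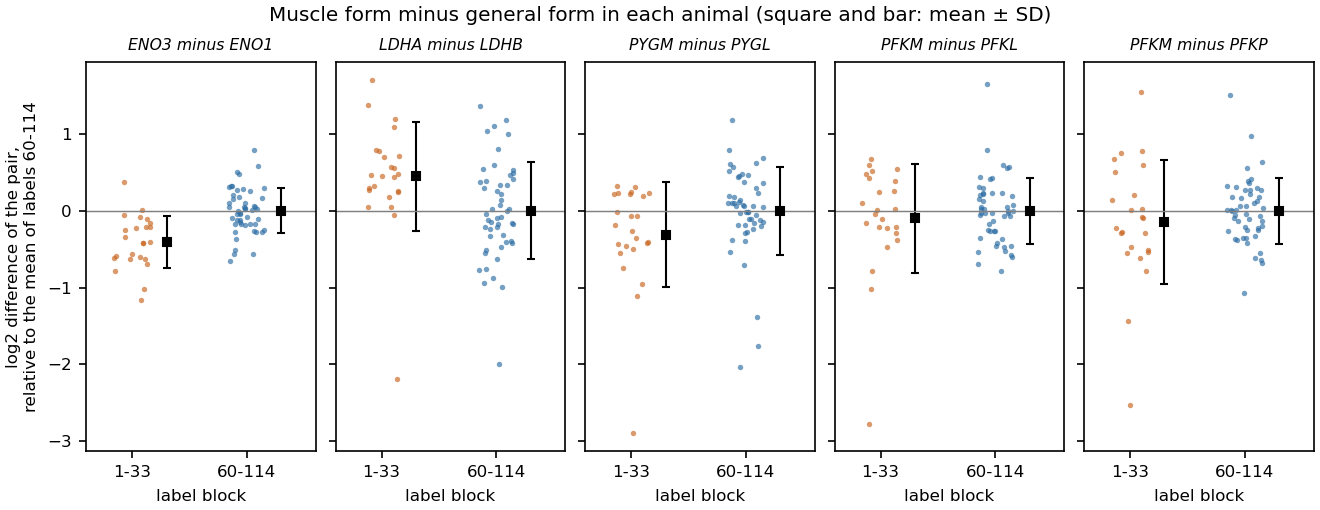
Log2 level of the muscle form minus that of the general form in each animal, relative to the mean of the second block (y axis), for 5 pairs and both label blocks; squares and bars are the mean and SD. ENO3 minus ENO1 lies lower and LDHA minus LDHB higher in the first block, and in the PFKM and PYGM pairs the lowest animal of the first block lies over 2 units below the median of its block.

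Within the blocks, LDHA and LDHB were the pair with a call in both. LDHA and LDHB were negatively correlated in the second block (r = -0.54, rho = -0.52, permutation p = 0.00011 and 0.00018, adjusted 0.00051 and 0.00091 over 552 correlations), and without the 2 animals farthest from the median of LDHA r was -0.48. In the first block r was -0.64 (rho = -0.19, permutation p = 0.0084 and 0.38, adjusted 0.024 and 0.51), but 0.08 without the 2 farthest animals, so it rested on those. For PYGM and PYGL r was -0.15 and -0.16 in the blocks (permutation p = 0.45 and 0.25), and for ENO3 and ENO1 it was 0.34 and 0.19 (permutation p = 0.11 and 0.20), with rho 0.50 and 0.12 (permutation p = 0.013 and 0.39, adjusted 0.039 and 0.52). PFKM and PFKL had r = -0.55 and -0.17 (rho -0.17 and -0.02, permutation p = 0.017 and 0.24 for r, adjusted 0.043 and 0.35), and 0.10 in the first block without the 2 farthest animals. PFKM and PFKP had r = -0.48 and -0.02 (rho -0.39 and 0.07, permutation p = 0.028 and 0.89 for r, adjusted 0.063 and 0.92), and -0.19 in the first block without the 2 farthest animals.

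Over all 276 pairs of member genes, 80 were correlated in both blocks with the same sign after adjustment over the 552 correlations, 59 positively and 21 negatively. GPI and TPI1, neighbours in the pathway, were among those that the array level changed least. Their r was 0.93 and 0.84 (rho 0.89 and 0.79, permutation p = 1e-05 each), and 0.88 and 0.79 with the array level taken out. PFKM and PGK1 had r = 0.94 and 0.88 (rho 0.73 and 0.86), and 0.93 and 0.76 with the array level taken out. For PGAM2 and PYGM the values of r were 0.98 and 0.97, and 0.94 and 0.75 with it taken out.

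HK1 was tied to members outside the bright group. HK1 and PHKB had r = -0.93 in the first block and -0.77 in the second (rho -0.80 and -0.69, permutation p = 1e-05 for each r, adjusted 5.7e-05). Without the 2 animals farthest from the median of HK1 r was -0.87 and -0.64, without the 4 animals that stand apart -0.87 and -0.73, and with the array level taken out -0.93 and -0.84. The animals with the most HK1 had the least PHKB, and neither gene follows the array level closely. HK1 and PYGL ran together, with r = 0.87 and 0.59 (rho 0.89 and 0.48, permutation p = 2e-05 and 3e-05, adjusted 0.00011 and 0.00016). Without the 2 farthest animals r was 0.80 and 0.50. HK1 and PFKL likewise had r = 0.80 and 0.48 (rho 0.69 and 0.41, permutation p = 1e-05 and 0.0008), and 0.66 and 0.46 without the 2 farthest animals. HK1 and PKM had r = -0.74 and -0.65 (rho -0.56 and -0.45, permutation p = 7e-05 and 1e-05), and -0.53 and -0.56 without the 2 farthest.

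Markers of other cell types moved with these genes in part. Scores of 8 marker lists were set against the 24 genes in both blocks, 384 correlations in all. HK1 was correlated with the leukocyte score, with r = 0.59 and 0.51 (rho 0.39 and 0.46, permutation p = 0.003 and 0.00013, adjusted 0.015 and 0.0016). Without the 2 farthest animals r was 0.29 and 0.39. That score held 3 of 7 listed markers (AIF1, CD14 and CD163), PTPRC and CD3E being outside the brighter group, and the summed log2 level ran from 9.40 to 11.60 in the first block and from 9.87 to 11.76 in the second. With the fibroblast score (COL1A2, COL3A1, DCN and LUM, 4 of 6 listed, summed level 13.21 to 14.67 and 13.40 to 14.69) r was 0.64 in the first block and 0.21 in the second (permutation p = 0.00058 and 0.15). PFKM ran against the fibroblast score in both blocks (r = -0.59 and -0.56, rho -0.71 and -0.57, permutation p = 7e-05 and 2e-05), and r was -0.64 and -0.47 without the 2 farthest animals. It was 1 of 7 genes that ran against that score in both blocks, the others being LDHA, PGAM2, PGK1, PGM1, PKM and PYGM, with r from -0.55 to -0.35. Against the leukocyte score LDHA, PFKM, PGK1, PGM1 and TPI1 ran in both blocks, 5 genes with r from -0.66 to -0.44, and PYGL ran with it (r = 0.63 and 0.35). The part of these cells in the relations of the members was not tested, and in whole muscle fewer cells of a type and less RNA per cell cannot be told apart.

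ALDOC, the aldolase first known from brain, followed the fat markers. Its level varied more than that of any other member gene of the brighter group, from 7.69 through a median of 8.85 to 12.14 in the first block and from 7.43 through 9.22 to 11.51 in the second. The blocks overlapped almost wholly, and animals in both reached over 2 units above the median. ALDOC and the adipocyte score had r = 0.94 and 0.89 (rho 0.90 and 0.87, permutation p = 1e-05 each, adjusted 0.00017), 0.88 and 0.87 without the 2 farthest animals, and 0.95 and 0.90 with the array level taken out. The score held ADIPOQ, FABP4, LPL and SCD, 4 of 7 listed. LEP was outside the brighter group. The summed log2 level of the list ran from 12.16 to 16.06 in the first block and from 11.98 to 15.53 in the second. Whether the ALDOC signal comes from fat cells in the sample was not tested. With all animals ALDOC had no slope that passed on PYGM, LDHA, LDHB or MYH7. Without the 4 animals that stand apart it had a positive slope on LDHB, of 0.30 with the block alone (adjusted p = 0.049).

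**Figure D5:**
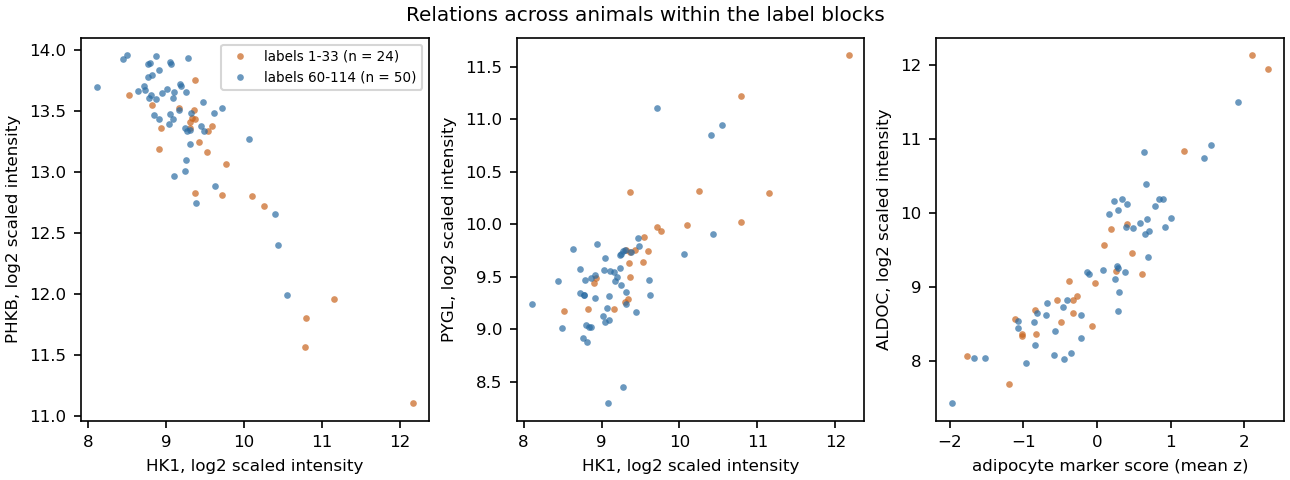
Relations across the animals of both label blocks, with every point an animal: PHKB against HK1, PYGL against HK1, and ALDOC against the adipocyte marker score, the mean of the standardised levels of 4 genes; other axes are scaled log2 intensities. PHKB falls and PYGL rises with HK1, and ALDOC rises with the score in both blocks.

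Probe sets of the same gene were compared as a check of the readings. The UGP2 probe sets had r = 0.90 and 0.91 in the blocks, and the 3 of GYS1 between 0.58 and 0.86. Those of PYGM had 0.69 to 0.99. In GAPDH the brightest probe set and the dimmest of the 4 had r = 0.78 in the first block but 0.25 in the second, so the GAPDH probe sets do not order the animals alike. The PKM probe sets had r = 0.71 and 0.37. With the array level taken out, r for PYGM was 0.74 to 0.98 in the first block and 0.28 to 0.92 in the second. For GAPDH it was 0.65 to 0.87 and -0.36 to 0.44. UGP2 kept 0.90 in both blocks, GYS1 had 0.50 to 0.82 over both, and PKM had 0.72 and 0.35.

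Of 30 further genes of sugar metabolism, none a member, 16 had a probe set and 12 had 1 or more in the brighter group, 16 probe sets in all. In the first block 3 of the 16 were higher and 5 lower, beside 24.8% and 36.6% of all probe sets. Of the 5 lower ones, 3 had a mean in the first block under 7.12, the lowest median kept, so they entered the brighter group through the second block and their differences are given as levels alone. These were PHKA2, the liver alpha subunit of phosphorylase kinase, at 5.32 ± 1.36 (SD, n = 24) against 7.81 ± 0.69 (SD, n = 50), and 2 probe sets of GPD2, the mitochondrial glycerophosphate dehydrogenase, at 6.99 ± 0.43 and 6.86 ± 0.70 (SD, n = 24) against 8.22 ± 0.51 and 7.30 ± 0.56 (SD, n = 50). The remaining probe set of GPD2 was lower by -1.02 ± 0.22 (SE, adjusted p = 4.6e-05), but by -0.50 with the array level in the fit (adjusted p = 0.19). SLC2A3, the neuronal glucose transporter, was lower by -1.39 ± 0.15 (SE, adjusted p = 1.4e-12).

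The non-members closest to each anchor, by moderated t, were these. For PYGM they were TNNT3 (slope 0.21), TPM1 (0.19) and BUD23 (0.19), with CHMP5 (-0.28), CANX (-0.25) and TMED10 (-0.21) at the other end. For LDHA they were ATP2A1 (0.31), SLN (0.18) and MYH2 (0.30), with INPP5F (-0.30), CMAS (-0.21) and CLTC (-0.25) opposite. LDHB was followed by S100A1 (0.67), PRKAR1A (0.30) and TXN (0.32) and opposed by CD93 (-0.37), ALKBH5 (-0.22) and the lactate carrier SLC16A3 (-0.43). All 6 of LDHB passed with the array level in the limma fit too. Of those of PYGM, CHMP5 (-0.098, adjusted p = 0.32) and TMED10 (-0.11, adjusted p = 0.15) did not pass there. MYH7 was followed by the slow fibre genes TNNT1 (0.32), MYL2 (0.27) and TNNI1 (0.29), which held with the array level in the fit at 0.39, 0.28 and 0.44, and opposed by TMX1 (-0.19), BNIP3L (-0.36) and RAP1B (-0.21).

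As a measure of RNA quality, the log2 ratio of the 3' to the 5' actin control was 1.72 ± 0.17 (SD, n = 24) in the first block and 1.81 ± 0.18 (SD, n = 50) in the second. With that ratio as a covariate 5 members were higher and 8 lower in the first block.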

How the data were processed

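Total RNA of 74 muscle samples was hybridised to 1 Affymetrix Porcine Genome Array each, and per the labels the arrays were read with GCOS 1.1.1. Their methods name scaling to a target signal of 500, MAS5 present calls and the PLIER algorithm. The deposited table holds linear intensity values made by the authors, of 24123 probe sets (124 controls), and the sources used here do not say which algorithm gave them. The number of arrays limits the precision.

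All arrays were brought to the same trimmed mean (500, with 2% of the values left out at each end), values under 1 were set to 1, and log2 was taken. Probe sets were named from the platform annotation (10069 with 1 symbol, 198 with several). The 11999 probe sets with the higher medians entered the tests. None of their values lay at the floor (0 values). Block differences and slopes on PYGM, LDHA, LDHB and MYH7 were fitted with limma 3.58.1 (lmFit and eBayes, R 4.3.3), Benjamini-Hochberg adjustment and an adjusted p under 0.05, and the fits were tested on simulated data. Isoform contrasts and correlations within a block used two-sided permutation tests with 100000 resamples (numpy 2.4.6). All member probe sets are named, as are the 3 non-members of largest positive and negative moderated t for each anchor. Of the further genes, those among the 5 probe sets of largest moderated t are named. Scalings, filters, covariates and subsets of animals were tried as alternatives. Leaving out the 4 animals that stand apart, correlating all member pairs and marker scores, and varying the interaction fits were chosen after seeing the data. The members and lists were chosen with earlier results of these data known. No sequence is printed.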

Additional observations from a re-analysis of the deposited data

How the results depend on the processing

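Alternatives were run for the member counts of the block and slope fits, the isoform contrasts, and the block differences and slopes of single member probe sets, and the cause of a change was not tested. Among the block differences of single probe sets, 268 were counted as unchanged, 41 newly passed, 20 no longer passed and 40 changed direction with a call in either fit. Among the slopes the numbers were 1125, 47, 184 and 27. A change of direction with no call in either fit was counted as unchanged. The median block difference over all probe sets was -0.068 in the main scaling, -0.654 in the values as deposited and 0.0088 after quantile normalization.

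Of the block counts (6 higher and 8 lower), the values as deposited gave 0 and 31, centring on the array median 12 and 5, the array level as a covariate 3 and 20, the same without the 4 animals that stand apart 3 and 21, leaving out animal 26 gave 10 higher, and 1 probe set per gene 5 lower. The isoform contrast LDHA minus LDHB turned to -0.32 with the array level, PYGM minus PYGL no longer passed with the actin ratio as a covariate (-0.26, permutation p = 0.089) or without animal 26 (-0.20, permutation p = 0.14), and quantile normalization brought PFKM minus PFKL (-0.31) and PFKM minus PFKP (-0.40) past the threshold. Without the 4 animals PYGM minus PYGL was -0.24 (permutation p = 0.029, not adjusted). ENO3 minus ENO1 kept its direction and call in all alternatives run. For 3 of them it had to be the same (-0.41), so they are no check. These were the values as deposited, centring on the array median, and the mean of the gene's probe sets. The other alternatives gave from -0.71 (array level as a covariate) to -0.37 (without animal 26).

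Following PYGM, 1 probe set per gene gave 12 positive, the first block alone 1 negative, and the array level without the 4 animals 13 and 0. Following LDHA, quantile normalization and 1 probe set per gene gave 12 positive each, the array level without the 4 animals 9 and 0, and the negative count was 1 as deposited and in the first block alone and 3 when centred, in the second block alone, without the 2 farthest animals, without animal 26 and without the 4. Following LDHB, the values as deposited gave 9 positive and 3 negative, the first block alone 1 and 10, the 2 farthest animals left out 1 and 8, the second block alone and animal 26 left out 1 positive each, and the array level without the 4 animals 6 negative. Following MYH7, quantile normalization gave 1 and 0, the values as deposited 4 and 1, the array level 0 and 1 (1 and 0 without the 4 animals), the first block alone 0 and 0, and 1 probe set per gene 11 and 1. The negative count was 0 with no filter on dim probe sets and 1 when centred, in the second block alone, without a block term and without animal 26. Quantile normalization gave 1 slope difference between blocks for PYGM.

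Block differences that changed direction with a call in either fit are given here. With the array level they were -0.30, -0.36, -0.40 and -0.16 for GAPDH, -0.41 for ENO3, -0.39 for PGAM2, -0.25 for TPI1, -0.41 and -0.37 for PYGM, -0.35 and -0.40 for GYS1 and 0.35 for UGP2. Without the 4 animals as well they were -0.16, -0.35, -0.38 and -0.019 for GAPDH, -0.38 for ENO3, -0.32 for PGAM2, -0.36 and -0.32 for PYGM, -0.30 and -0.37 for GYS1, 0.40 for UGP2 and 0.093 for PHKB. In the values as deposited they were -0.45, -0.46, -0.49 and -0.34 for GAPDH, -0.53 for ENO3, -0.21 for PYGL, -0.48 for PGAM2, -0.50 for TPI1, -0.12 for ENO1, -0.52 and -0.46 for PYGM, -0.55 and -0.55 for GYS1, -0.53 for UGP2, -0.055 for HK1 and -0.59 for PKM.

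Slopes that changed direction, again with a call in either fit, were those of PHKB on PYGM (0.64 with the array level, 0.24 after quantile normalization, 0.42 as deposited), UGP2 on PYGM (0.17 as deposited) and on LDHA (0.20 as deposited, 0.00049 after quantile normalization), ENO3 (-0.0061) and GAPDH (-0.016) on LDHA after quantile normalization, and PYGL on LDHA (0.042 without the 4 animals). On LDHB they were PGM1 (0.00070), ENO3 (0.012), GAPDH (0.014), GYG1 (0.12), PHKB (0.0098), PGK1 (0.0038) and PKM (0.034) as deposited. On MYH7 they were TPI1 (-0.0027), GYS1 (-0.13) and PFKM (-0.0080) with the array level and without the 4 animals, and PGM1 (-0.023), ENO3 (-0.00071), PGAM2 (-0.015), TPI1 (-0.0055), LDHA (-0.019), PYGM (-0.0045), PFKM (-0.029) and PGK1 (-0.020) after quantile normalization. No paired analysis was possible because the animals form 1 group and the label numbers pair none. Signal limits PHKG1 and PHKG2, whose levels lie among the dimmer probe sets.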
